A study of Homo sapiens with 4 samples.

Results

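Expression of 36 genes of the tricarboxylic acid (TCA) cycle and of fatty acid oxidation was compared between vehicle and LY500307 in ovarian cancer stem cells (OCSCs). The genes were taken by symbol from a given list, named by pathway and drawn up with earlier results of these data known, out of 23228 gene symbols counted by RNA-seq. The list holds 20 genes of the cycle, of anaplerosis and of transamination and 16 genes of fatty acid oxidation. All 36 were found and passed the filter on low counts, as did 14473 of all genes. OCSCs were described as SKOV3 cells sorted by FACS for aldehyde dehydrogenase activity (ALDH+) and grown as spheroids. SKOV3 is a long-established line from a human ovarian carcinoma, and LY500307 is an agonist of estrogen receptor beta (ERβ). One group of 2 samples (replicates 1 and 2) received vehicle and the other group of 2 samples received 5 µM LY500307, each for 24 h. All 4 samples thus came from a single parental line and a single sort marker, with no unsorted or untreated arm here, and nothing states that the replicates were separate cultures. The p-values given below therefore measure the spread between these samples, which may be technical.

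The question asked of each gene was whether its mRNA level differed between LY500307-treated and vehicle-treated OCSCs. Gene totals ranged from 28841701 to 34943882 reads per sample, and GLUD1, near 100 CPM (reads per 1000000 counted reads), rested on 2793 to 4500 reads. Levels are given as CPM on library sizes scaled by the trimmed mean of M values (TMM), and levels of different genes are compared only as CPM per kilobase of transcript. Differences are log2 fold changes of LY500307 over vehicle from the quasi-likelihood test of edgeR, fitted to all genes tested. With 2 samples per group, the smallest two-sided p that an exact permutation test can reach for a gene is 0.333, so the calls lean on spread estimated across genes. LY500307 replicate 2 stood apart from the other samples. The reads that the counting assigned to no feature were 17.3% of its tallied reads, against 19% to 20.5% in the other samples. Its TMM factor was 1.0341 against 0.9857 to 0.9935. For the genes described in full whose difference rests on this sample, the log2 fold change is given also without it.

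The labelled cell line was checked against marker genes. EPCAM (194 to 240 CPM), KRT18 (23.5 to 31.8 CPM) and ERBB2 (48.7 to 59.4 CPM) were present in all samples. PAX8, a Müllerian lineage factor, had 0 reads in all 4 samples, KRT7 had 0 to 1, KRT19 had 0 to 2, CDH1 had 0 to 4 and KRT8 had 9 to 33. The libraries labelled SKOV3 therefore lacked several epithelial markers, while the mesenchymal marker VIM stood at 1109 to 1301 CPM. The study reports DNA profiling of its lines, and the markers read here do not settle which line was sequenced. The aldehyde dehydrogenase genes behind the sort summed to 15.6 to 17.4 CPM. Leukocyte markers summed to 0.375 to 0.915 CPM, endothelial markers to 0.0334 to 0.371 CPM, and adipocyte and muscle markers to 0.281 to 1.4 CPM. The 4 fibroblast markers, almost wholly COL1A1 and COL1A2, summed to 447 and 458 CPM with vehicle and to 531 and 635 CPM with LY500307. Fewer cells of a type and less RNA per cell cannot be told apart in such bulk samples.

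The TCA cycle oxidizes acetyl-CoA in the mitochondrial matrix and passes the electrons to the respiratory chain as NADH and reduced flavin. Anaplerotic enzymes such as pyruvate carboxylase and glutamate dehydrogenase refill its intermediates, and the aspartate aminotransferases and malate dehydrogenases, with partners on both sides of the inner membrane, form the malate-aspartate shuttle. Long-chain fatty acids enter the matrix as carnitine esters made by the carnitine palmitoyltransferases, and each turn of β-oxidation then runs through a dehydrogenase, a hydratase, a second dehydrogenase and a thiolase. The electron transfer flavoprotein carries electrons from the acyl-CoA dehydrogenases to ubiquinone. In ovarian cancer, fatty acid oxidation is known as a fuel route for cells that grow in the lipid-rich omentum.

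Promoter sequences were read from RefSeq (GRCh38.p14), which gave a window for 32 of the 36 genes. Only the 250 bases upstream of each start were searched, on both strands. The palindromic estrogen response element (GGTCA and TGACC with any 3 bases between them) occurred in 0 of the 32 windows and in 0.0204% of the windows of 9818 tested genes. The element TCAAGGTCA, bound by estrogen-related receptors, also occurred in 0 windows, against 0.224% of tested genes. The CCAAT box (CCAAT) was found in 12 windows, or 37.5%, against 41.7% of tested genes, and the GC box (GGGCGG) in 23 windows, or 71.9%, against 74.1%. Over all 27305 genes with a window, these shares were 0.0513%, 0.388%, 37% and 46.2% in the same order. The sequences printed include those upstream of the pair of genes with a higher level at an unadjusted p below 0.05, GOT1 and ECHS1. The other is the stretch common to the upstream windows of HADHA and HADHB. These genes have divergent starts and encode both subunits of a single enzyme. The sequences run 5′ to 3′ towards the gene (for the shared stretch, towards HADHB), with both boxes in capitals on either strand. GOT1 is read from chr10:99430625-99430874 (minus strand), ECHS1 from chr10:133373355-133373604 (minus strand) and the shared stretch from chr2:26244689-26244882 (plus strand).
GOT1: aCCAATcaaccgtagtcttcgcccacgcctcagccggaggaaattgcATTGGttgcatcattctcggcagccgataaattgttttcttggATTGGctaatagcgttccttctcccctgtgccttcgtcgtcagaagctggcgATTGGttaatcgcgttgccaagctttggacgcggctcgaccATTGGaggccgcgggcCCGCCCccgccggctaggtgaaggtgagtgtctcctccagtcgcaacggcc
ECHS1: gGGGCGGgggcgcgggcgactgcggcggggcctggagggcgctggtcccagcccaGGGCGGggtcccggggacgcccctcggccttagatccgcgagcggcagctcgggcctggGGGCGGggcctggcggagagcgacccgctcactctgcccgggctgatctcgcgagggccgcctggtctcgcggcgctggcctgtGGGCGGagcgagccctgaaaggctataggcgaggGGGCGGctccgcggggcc
HADHA and HADHB: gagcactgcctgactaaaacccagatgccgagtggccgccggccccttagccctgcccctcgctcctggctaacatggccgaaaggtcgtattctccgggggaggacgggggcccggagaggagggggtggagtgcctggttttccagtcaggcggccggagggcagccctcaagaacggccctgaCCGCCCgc
The GOT1 window held 5 CCAAT boxes and 1 GC box, and the ECHS1 window held 0 CCAAT boxes and 5 GC boxes. The HADHA and HADHB starts lay 307 bases apart. The 194 bases printed are only the part common to both windows, and this part held 1 GC box. CPT1B had no window in the table used. A match of letters is a description and shows no binding.

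Levels of the 36 genes varied widely among themselves. MDH1, the cytosolic malate dehydrogenase, had the highest mean level per length at 137 CPM per kb, followed by HADHA at 115 and MDH2 at 105. The lead of MDH1 was wide only in LY500307 replicate 2, at 197 against 111 CPM per kb for HADHA. In the other samples MDH1 was at 116 to 119 and HADHA at 115 to 118 CPM per kb. CPT1B, the muscle-type carnitine palmitoyltransferase, had the lowest at 0.422 CPM per kb, below ACADS at 2.46, PC at 2.98 and CPT1A at 4.51. The median gene of the list stood at 83.5 CPM, against 27.9 CPM for all genes tested, so most of these genes were counted more deeply than the typical gene. Read counts ran from 19 for CPT1B to 11789 for HADHA.

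**Figure D1:**
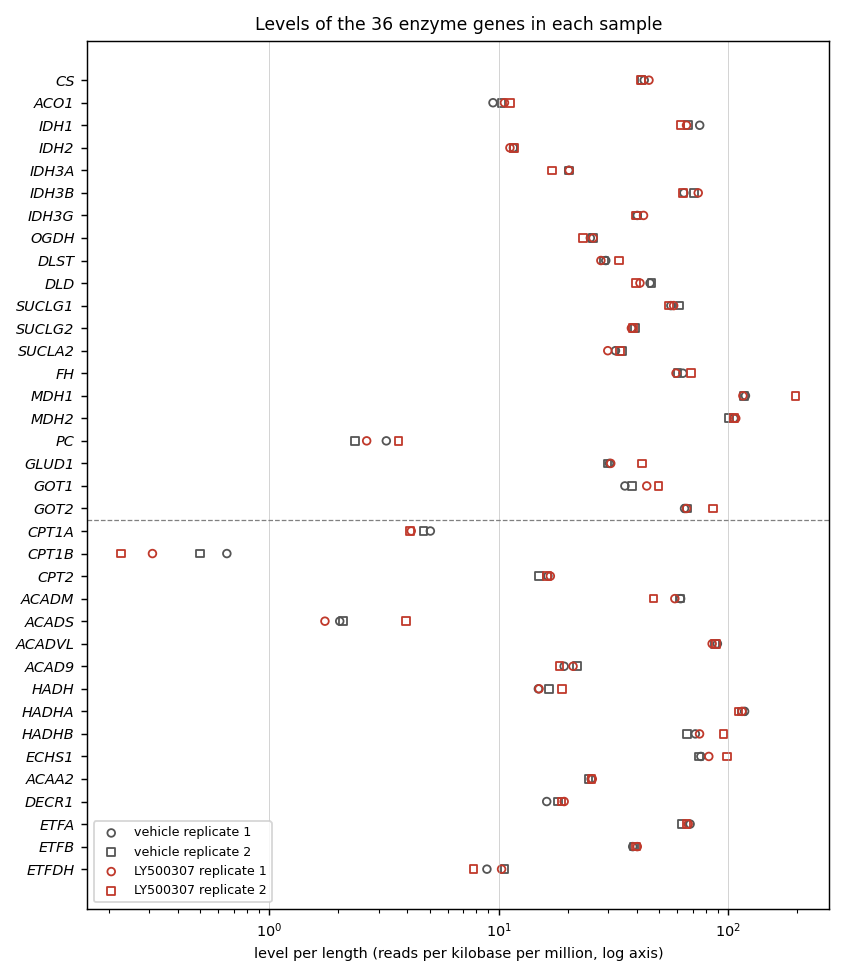
Level of each of the 36 genes in CPM per kilobase of transcript (log axis), with a point for each of the 2 vehicle and the 2 LY500307 samples, grouped by role. MDH1 and HADHA lie farthest to the right and CPT1B farthest to the left, and for most genes the 4 points fall close together.

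Few of these genes passed the test. GOT1 and ECHS1 were higher and CPT1B was lower with LY500307 at an unadjusted p below 0.05 in edgeR's quasi-likelihood test, which is 3 of 36 genes or 8.33%. Over all 14473 genes tested, 1678 passed the same threshold, or 11.6%, with 6.09% higher (882 genes) and 5.5% lower (796 genes), so the count for the list was not above the background. This split was 1070 higher and 593 lower with library totals alone, and 631 and 955 with a gene length correction and a replicate block. The study's criteria add an absolute log2 fold change above 0.5. Under them 0 of the 36 genes were higher and 1, CPT1B, was lower, against 2.76% and 1.86% of all genes. No gene of the list had an adjusted p below 0.05 in edgeR or DESeq2, and edgeR called 0 of all genes tested (0%) at that threshold. DESeq2 gave an unadjusted p below 0.05 for GOT1 (0.0144), MDH1 (0.0407) and HADHB (0.048), and not for CPT1B (0.0719). Over all genes, DESeq2 called 778 higher and 637 lower at that threshold. The log2 fold change was positive for 21 genes and negative for 15, with a median of 0.03 beside 0.00 for all genes, and the sign of 10 genes changed under at least 1 alternative with all samples. The median absolute log2 fold change was 0.09, beside 0.18 for all genes. The 95% interval of the log2 fold change lay wholly within ±0.5 for 24 of the 36 genes (66.7%), beside 43.1% of all genes tested, whose median level was lower.

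**Figure D2:**
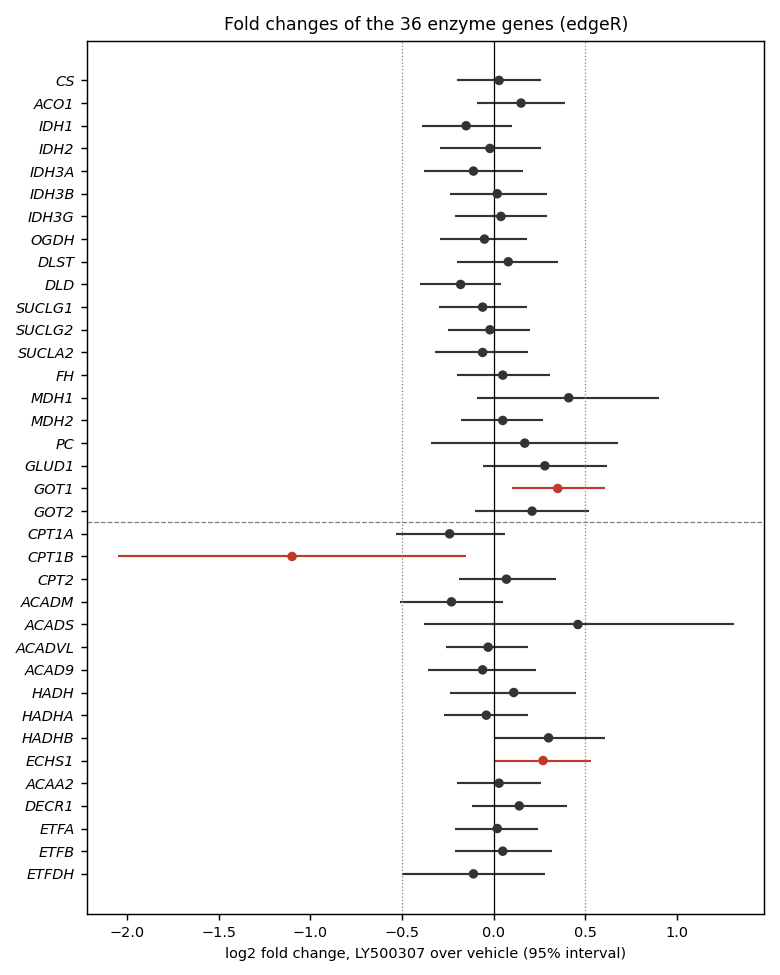
Log2 fold change (LY500307 over vehicle) of the 36 genes with its 95% interval from edgeR, ordered by role, the cycle genes above the dashed line and the fatty acid oxidation genes under it; dotted lines mark ±0.5. In red, GOT1 at 0.35, ECHS1 at 0.27 and CPT1B at −1.10 are the genes with an unadjusted p below 0.05.

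The samples of the groups did not overlap for 13 of the 36 genes. Both LY500307 samples lay above both vehicle samples for 8 genes (22.2%, beside 24.2% of all genes) and below them for 5 genes (13.9%, beside 24.4%). The genes above were ACO1, GLUD1, GOT1, HADHB, ECHS1, ACAA2, DECR1 and ETFB, and the genes below were IDH1, DLD, CPT1A, CPT1B and ACADM. Among the genes above, ACAA2 and ETFB had log2 fold changes of 0.03 and 0.05, so the absence of overlap did not mark a large difference.

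At the entry of the cycle, CS encodes citrate synthase, which joins acetyl-CoA to oxaloacetate. Its level was 126 and 122 CPM with vehicle and 132 and 121 CPM with LY500307, so the groups overlapped, with a log2 fold change of 0.03 (95% interval −0.20 to 0.26). ACO1, the cytosolic aconitase that also acts as an iron-responsive RNA-binding protein, gave 70.3 and 76.4 CPM with vehicle and 78.9 and 83.5 CPM with LY500307. Its log2 fold change was 0.15 (edgeR, unadjusted p = 0.198).

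The isocitrate dehydrogenases make 2-oxoglutarate. IDH1, the cytosolic NADP-dependent enzyme, had 174 and 154 CPM with vehicle and 153 and 144 CPM with LY500307. Both LY500307 samples were just below the lower vehicle sample, and the log2 fold change was −0.15 (SE 0.11, edgeR, unadjusted p = 0.197). IDH2, its mitochondrial counterpart, had 30.9 and 30.7 CPM with vehicle and 29.7 and 31.1 CPM with LY500307, with a log2 fold change of −0.02 (95% interval −0.29 to 0.26). Per length, IDH1 stood at 6.48 and 5.77 times the level of IDH2 with vehicle and at 5.89 and 5.3 times with LY500307. The NAD-dependent enzyme is built from the products of IDH3A, IDH3B and IDH3G, whose log2 fold changes were −0.11, 0.02 and 0.04. The median over these 5 genes was −0.02, and the interval of each lay within ±0.5.

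The 2-oxoglutarate dehydrogenase complex consists of OGDH, DLST and DLD. OGDH, the decarboxylating subunit, had 105 and 108 CPM with vehicle and 108 and 97.8 CPM with LY500307. The log2 fold change of OGDH was −0.05 (95% interval −0.29 to 0.18), and 0.02 without LY500307 replicate 2. DLD, the dihydrolipoamide dehydrogenase that the pyruvate dehydrogenase complex also uses, had 162 and 164 CPM with vehicle and 146 and 140 CPM with LY500307. Its groups did not overlap, and the log2 fold change was −0.18 (SE 0.10, edgeR, unadjusted p = 0.0908, adjusted p = 0.452). With a GC content correction the log2 fold change of DLD was −0.06. An exon of LAMB1 overlaps DLD on the opposite strand. DLST, the succinyltransferase, had a log2 fold change of 0.08. The succinyl-CoA ligase genes SUCLG1, SUCLG2 and SUCLA2 had log2 fold changes of −0.06, −0.02 and −0.06, though a GC content correction gave 0.05 for SUCLG2 and 0.06 for SUCLA2. Their groups overlapped. SUCLA2 and SUCLG2 encode alternative subunits of the ATP-forming and GTP-forming enzymes, and their ratio per length was 0.847 and 0.873 with vehicle and 0.79 and 0.882 with LY500307.

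Fumarase, encoded by FH, hydrates fumarate to malate. FH had 114 and 108 CPM with vehicle and 106 and 124 CPM with LY500307, so the LY500307 samples spanned the vehicle samples. The log2 fold change of FH was 0.05 (95% interval −0.20 to 0.31), and −0.06 without LY500307 replicate 2. MDH1 (GRCh37 chr2:63815743-63834331, plus strand) had 154 and 152 CPM with vehicle and 150 and 255 CPM with LY500307. A single sample, LY500307 replicate 2, was high. For MDH1 the log2 fold change was 0.41 (SE 0.21, edgeR, unadjusted p = 0.0944), and it was −0.02 without that sample. MDH2, the mitochondrial enzyme, had 230 and 220 CPM with vehicle and 235 and 230 CPM with LY500307, a log2 fold change of 0.05. The ratio of MDH1 to MDH2 per length was accordingly 1.12, 1.16 and 1.07 in the first 3 samples and 1.86 in LY500307 replicate 2. An exon of WDPCP overlaps MDH1 on the opposite strand and 2 pseudogenes carry its name, and the strand setting of the counting is not given in the sources used here.

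The 4 genes of anaplerosis and transamination all had a positive log2 fold change, with a median of 0.25. Without LY500307 replicate 2 the median was 0.03 and PC was negative, and without LY500307 replicate 1 the median was 0.42. Without vehicle replicate 2, PC was at −0.04. GOT1, the cytosolic aspartate aminotransferase, lies at GRCh37 chr10:101156627-101190381 on the minus strand. It had 70.3 and 75.4 CPM with vehicle and 87.5 and 98.6 CPM with LY500307, from 2107 and 2142 reads against 3037 and 3187. Both LY500307 samples were above both vehicle samples. The log2 fold change was 0.35 (SE 0.11, 95% interval 0.10 to 0.61), or 1.28-fold, with an unadjusted p of 0.012 and an adjusted p of 0.422 in edgeR's quasi-likelihood test. It was 0.27 when LY500307 replicate 2 was left out and 0.44 when LY500307 replicate 1 was. The unadjusted p was above the threshold without vehicle replicate 1 (0.171) and without vehicle replicate 2 (0.0744), and the adjusted p without LY500307 replicate 2 was 0.0432 in edgeR.

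The other genes of this group were highest in LY500307 replicate 2. GOT2, the mitochondrial aspartate aminotransferase, had 156 and 160 CPM with vehicle and 160 and 208 CPM with LY500307, with a log2 fold change of 0.21, and 0.01 without LY500307 replicate 2. GLUD1, glutamate dehydrogenase, had 100 and 98.3 CPM with vehicle and 102 and 139 CPM with LY500307. Its log2 fold change was 0.28 (SE 0.15, edgeR, unadjusted p = 0.097), and 0.04 without LY500307 replicate 2. PC, pyruvate carboxylase, gave 13.9 and 10.2 CPM with vehicle and 11.5 and 15.7 CPM with LY500307, with a log2 fold change of 0.17, and −0.07 without LY500307 replicate 2. GLUD1 and GOT2 have 6 pseudogenes each that carry their names, and GLUD1 has the near-identical copy GLUD2, which had 73.8 and 76.4 CPM with vehicle and 73.6 and 56.5 CPM with LY500307. Reads that align equally to GLUD1 and GLUD2 fall among those without a unique alignment, which were left out, so both values are uncertain. The ratio of GOT1 to GOT2 per length was 0.55 and 0.576 with vehicle and 0.671 and 0.582 with LY500307.

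The carnitine palmitoyltransferases control the entry of long-chain fatty acids into mitochondria. CPT1B lies at GRCh37 chr22:51007290-51016894 on the minus strand. It had 1.7 and 1.3 CPM with vehicle and 0.807 and 0.588 CPM with LY500307, from 51 and 37 reads against 28 and 19. The LY500307 samples thus lay under the lower vehicle sample. Its log2 fold change was −1.10 (SE 0.41, 95% interval −2.05 to −0.15), with an unadjusted p of 0.0284 and an adjusted p of 0.422 in edgeR. The unadjusted p of CPT1B was above the threshold without vehicle replicate 1 (0.128), without LY500307 replicate 1 (0.0503) and without LY500307 replicate 2 (0.154), and the log2 fold change then ranged from −1.35 to −0.89. CPT1B shares exons on its own strand with the readthrough gene CHKB-CPT1B, so reads in the shared exons can be lost as ambiguous and its counts are uncertain.

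CPT1A, the liver-type enzyme of the same step, had 26.4 and 24.6 CPM with vehicle and 21.8 and 21.6 CPM with LY500307. Its groups did not overlap either, and its log2 fold change was −0.24 (SE 0.13, edgeR, unadjusted p = 0.105, adjusted p = 0.469). Per length, CPT1A stood at 7.72 and 9.4 times CPT1B with vehicle and at 13.4 and 18.2 times with LY500307, a ratio that rests on the few CPT1B reads. CPT1C, the brain-type member, which is outside the 36 genes, was the most abundant of the family per length, at 7.47 and 7.56 times CPT1A with vehicle and 9.62 and 11 times with LY500307. Its level was 107 and 101 CPM with vehicle and 114 and 129 CPM with LY500307 (log2 fold change 0.22, edgeR, unadjusted p = 0.0689). CPT2, the transferase of the inner membrane, had a log2 fold change of 0.07.

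The acyl-CoA dehydrogenases open each turn of β-oxidation and differ in the chain length they prefer. ACADVL, for very long chains, had 196 and 192 CPM with vehicle and 186 and 193 CPM with LY500307, with a log2 fold change of −0.03 (95% interval −0.26 to 0.19). ACADM, for medium chains, had 141 and 140 CPM with vehicle and 132 and 107 CPM with LY500307. The groups of ACADM did not overlap, and its log2 fold change was −0.23 (SE 0.12, edgeR, unadjusted p = 0.0968), and −0.08 without LY500307 replicate 2. ACADM overlaps RABGGTB on the same strand. ACADS, for short chains, had 3.77 and 3.91 CPM with vehicle and 3.26 and 7.36 CPM with LY500307, from 113, 111, 113 and 238 reads. Its log2 fold change of 0.46 (SE 0.36, edgeR, unadjusted p = 0.238) was the highest of the 36 with all samples, but it was −0.23 without LY500307 replicate 2, the only sample that was high. ACAD9, which also serves the assembly of respiratory complex I, had a log2 fold change of −0.06.

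The later steps of the spiral are run by the hydratase, dehydrogenase and thiolase genes, grouped here with the reductase gene DECR1. Of these 6 genes, 5 had a positive log2 fold change, and both LY500307 samples lay above both vehicle samples for 4 of them, beside 24.2% of all genes. DECR1 is in both counts. HADH, among the 5, was at −0.07 without LY500307 replicate 2. ECHS1, the short-chain enoyl-CoA hydratase, lies at GRCh37 chr10:135175989-135186858 on the minus strand. It had 97.1 and 95.2 CPM with vehicle and 105 and 126 CPM with LY500307, from 2911, 2707, 3652 and 4086 reads. The log2 fold change was 0.27 (SE 0.12, 95% interval 0.00 to 0.53), with an unadjusted p of 0.0494 and an adjusted p of 0.43 in edgeR. It was 0.13 without LY500307 replicate 2 (edgeR, unadjusted p = 0.0864) and 0.40 without LY500307 replicate 1, and the unadjusted p was 0.211 without vehicle replicate 1 and 0.257 without vehicle replicate 2. With all samples, ECHS1 kept an unadjusted p below 0.05 under 4 of 11 alternatives, against 10 for GOT1 and 10 for CPT1B. The log2 fold change of ECHS1 was 0.19 with a GC content correction and 0.14 with a gene length correction.

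HADHA and HADHB encode the α and β subunits of the mitochondrial trifunctional protein, which carries out the last 3 steps on long chains. HADHA (GRCh37 chr2:26413504-26467540, minus strand) had 347 and 339 CPM with vehicle and 340 and 327 CPM with LY500307, with a log2 fold change of −0.04 (95% interval −0.27 to 0.19). HADHB (GRCh37 chr2:26466038-26513333, plus strand), which shares the upstream stretch printed above, had 144 and 133 CPM with vehicle and 150 and 191 CPM with LY500307. Its groups did not overlap. For HADHB the log2 fold change was 0.30 (SE 0.13, edgeR, unadjusted p = 0.0518), and it was 0.12 without LY500307 replicate 2. The ratio of HADHA to HADHB per length was 1.64 and 1.74 with vehicle and 1.54 and 1.16 with LY500307. ACAA2 (mitochondrial thiolase), DECR1 (dienoyl-CoA reductase) and HADH (short-chain hydroxyacyl-CoA dehydrogenase) had log2 fold changes of 0.03, 0.14 and 0.11.

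**Figure D3:**
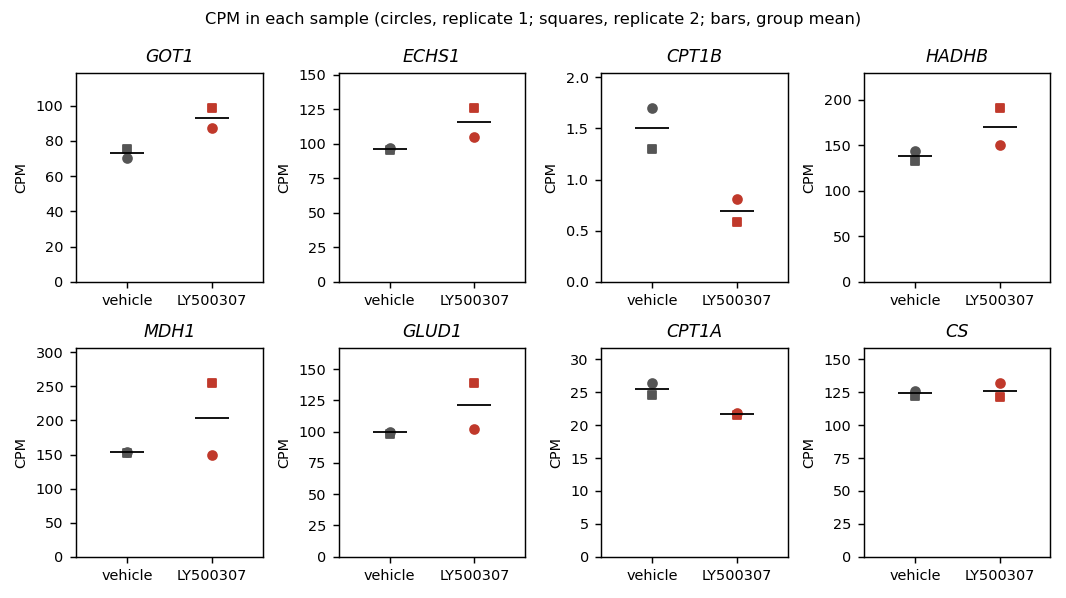
CPM of 8 genes in each sample (circles, replicate 1, squares, replicate 2, bars, group mean); each panel has its own axis from 0. GOT1, ECHS1, CPT1B, HADHB, GLUD1 and CPT1A show groups that do not overlap. MDH1, GLUD1, HADHB, ECHS1 and GOT1 are higher in LY500307 replicate 2 than in LY500307 replicate 1, and CS stays between 121 and 132 CPM.

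ETFA and ETFB encode the electron transfer flavoprotein, and ETFDH encodes its ubiquinone oxidoreductase. Their log2 fold changes were 0.02, 0.05 and −0.11. The ratio of ETFA to ETFB per length was 1.78 and 1.62 with vehicle and 1.67 and 1.66 with LY500307. ETFDH ranged from 24.2 CPM in LY500307 replicate 2 to 33.1 CPM in vehicle replicate 2, and its groups overlapped.

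LY500307 samples differed more from each other than vehicle samples did. The absolute log2 ratio between the LY500307 replicates was above 0.25 for 13 of the 36 genes (36.1%, beside 44.2% of all genes), and that between the vehicle replicates for 3 genes (8.33%, beside 24% of all genes). Among the 13, LY500307 replicate 2 was the higher for DLST, MDH1, PC, GLUD1, GOT2, ACADS, HADH, HADHB and ECHS1 and the lower for IDH3A, CPT1B, ACADM and ETFDH. The widest gaps were those of ACADS (1.18 on the log2 scale) and MDH1 (0.76). The fibroblast marker sum also differed between these replicates, at 531 and 635 CPM, mostly through COL1A2 (299 and 395 CPM). COL1A1 was at 222 and 230 CPM, DCN at 7.58 and 8.76 CPM, and PDGFRB was lower in replicate 2, at 2.54 and 1.7 CPM. The part of this difference in the gaps was not tested. Without LY500307 replicate 1, where the spread came from the vehicle pair alone, 12 of the 36 genes were higher and 5 lower at an unadjusted p below 0.05 in edgeR, and 2945 and 3067 of all genes. Without LY500307 replicate 2, 1 of the 36 genes was higher (GOT1) and 1 was lower (DLD), beside 1060 and 1211 of all genes.

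**Figure D4:**
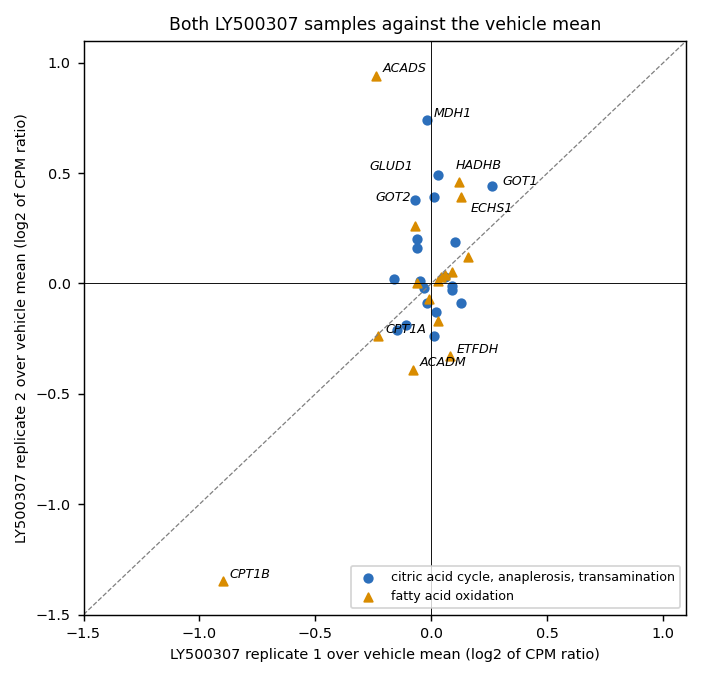
Log2 ratio of CPM of each LY500307 sample over the vehicle mean, with replicate 1 on the horizontal axis and replicate 2 on the vertical axis; each point is a gene, circles for cycle, anaplerosis and transamination and triangles for fatty acid oxidation, and the dashed line marks equal values. CPT1A, CPT1B and GOT1 lie away from the origin in both samples, whereas MDH1, GLUD1 and GOT2 do so in replicate 2 and not in replicate 1.

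Other genes of these pathways were taken from lists outside the 36. Of 19 further genes of the cycle and of anaplerosis, 19 were tested and 0 had an unadjusted p below 0.05 in edgeR, beside 11.6% of all genes, or in DESeq2, with a median log2 fold change of 0.03. They include succinate dehydrogenase, the malic enzymes and the pyruvate dehydrogenase subunits. Of 29 further symbols of fatty acid oxidation, 25 were tested, since ACSL5, ACADL and EHHADH were below the filter and MMUT was listed under its older symbol MUT, which was also on the list. In edgeR, 3 of the 25 were higher and 2 were lower at an unadjusted p below 0.05, which is 20% beside 11.6% of all genes, and 0 met the study's criteria. The list is wider than β-oxidation, since it also holds enzymes of propionyl-CoA and isovaleryl-CoA, among them PCCB and IVD, both called higher. All 5 calls were lost with the GC content correction, without vehicle replicate 1 and without vehicle replicate 2, each of which left 0 genes in either direction. The following 5 genes were named after their values were seen. ECH1, a dienoyl-CoA isomerase, had 76.6 and 78.5 CPM with vehicle and 89.4 and 98.1 CPM with LY500307 (log2 fold change 0.27, edgeR, unadjusted p = 0.0287). PCCB, a propionyl-CoA carboxylase subunit, had a log2 fold change of 0.25 (edgeR, unadjusted p = 0.0401) and IVD, isovaleryl-CoA dehydrogenase, of 0.35 (edgeR, unadjusted p = 0.0352). ACSL3 and ACSL4, long-chain acyl-CoA synthetases that activate fatty acids, had log2 fold changes of −0.36 (edgeR, unadjusted p = 0.0469) and −0.25 (edgeR, unadjusted p = 0.0434). ACSL3 had 397 and 396 CPM with vehicle and 358 and 259 CPM with LY500307. Without LY500307 replicate 2, the log2 fold changes were 0.21 for ECH1, 0.17 for PCCB, 0.15 for IVD, −0.14 for ACSL3 and −0.17 for ACSL4.

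Regulators of these pathways were read in the same way. Of 19 genes, 16 were tested, since PPARG, PPARGC1A and HNF4A were below the filter. In edgeR, 0 were higher and 1 was lower at an unadjusted p below 0.05, beside 6.09% and 5.5% of all genes, and the median log2 fold change was −0.02. The lower gene, also named after its value was seen, was PPARGC1B, a coactivator of estrogen-related receptors and PPARs. It had 41.1 and 38 CPM with vehicle and 32.1 and 30.1 CPM with LY500307 (log2 fold change −0.35, edgeR, unadjusted p = 0.021), and its groups did not overlap. In edgeR its unadjusted p was 0.217 without vehicle replicate 1, 0.0891 without vehicle replicate 2 and 0.066 with the gene length correction and the replicate block. PPARA, the fatty acid receptor that drives many oxidation genes, had 34.3 and 35.7 CPM with vehicle and 38.7 and 42.2 CPM with LY500307 (log2 fold change 0.21, edgeR, unadjusted p = 0.116). ESRRA, the estrogen-related receptor alpha gene, had 30.6 and 32.2 CPM with vehicle and 32.8 and 41.4 CPM with LY500307 (log2 fold change 0.24, edgeR, unadjusted p = 0.134). On the log2 scale, ESRRA was 0.07 over the vehicle mean in LY500307 replicate 1 and 0.40 in LY500307 replicate 2. PPARA and ESRRA were likewise chosen after their values were seen.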

How the data were processed

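RNA from 4 samples was sequenced, 2 with vehicle and 2 with LY500307. Per the submitters' processing notes, bcl2fastq, TopHat2 2.0.8b and HTSeq were used with hg19. The authors deposited, per the labels, raw read counts per gene symbol, without normalization. The labels name a total RNA library kit and the study's methods a stranded mRNA kit, and the strand setting of the counting is not given in the sources used here. Reads assigned to no feature made up 17.3% to 20.5% of tallied reads, and reads without a unique alignment 32.3% to 33.4%. Both were left out, with the other tallies, of library sizes and tests.

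Counts were tested with edgeR 4.0.16 in R 4.3.3 (TMM, filterByExpr, glmQLFit and glmQLFTest, with Benjamini-Hochberg adjustment over 14473 genes). The standard error is the absolute log2 fold change divided by the square root of F. Lengths are those of canonical transcripts of a GRCh37 annotation, matched for 21271 of 23228 symbols (91.6%, 2134 by an older symbol) and for all 36 genes. Tables were joined in Python 3.11.15.

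The genes and lists were chosen with earlier results of these data known. Values in every sample were to be given for genes with an unadjusted p below 0.05, for the highest and lowest level per length, and for CS, IDH1, IDH2, OGDH, FH, CPT1A, ACADVL and HADHA, and of the other lists for genes meeting the study's criteria. Genes outside this rule were named after their values were seen.

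Alternatives were DESeq2 1.42.0, its size factors, library totals alone, no filter (at least 1 read) or 1 CPM in 2 samples, a replicate block, GC content and length corrections (loess span 0.3, prior count 2) with and without the block, and leaving out each sample. A block with crossed replicate numbers was added after the data were seen. The procedure was tested on simulated data. Western blot, RT-qPCR and mouse data were not analysed here.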

Additional observations from a re-analysis of the deposited data

How the results depend on the processing

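Of 396 log2 fold changes of the 36 genes recomputed with all samples under 11 alternatives, 346 kept their sign and their side of an unadjusted p of 0.05, 9 lost the call, 14 gained one and 27 changed sign, in 10 genes. The causes of these moves were not tested. Over all genes, higher and lower calls at that p were 778 and 637 with DESeq2, 1156 and 980 without a filter. They were 816 and 738 with the CPM filter and 676 and 846 with the gene length correction. The GC content correction with replicate block gave 721 and 762, and the crossed block 1182 and 1207. DESeq2 gave 16 genes of all tested at an adjusted p below 0.05, 0 lower genes of the 36 by p alone and 0 by the study's criteria, 1 lower gene among the other fatty acid oxidation genes and a median of −0.06 for the regulators. Without a filter, 4 of the 36 genes were higher and the regulator median was −0.06, and with the CPM filter 1 of the 36 was higher and 1 other fatty acid oxidation gene was lower. With library totals alone, the median log2 fold change was 0.07 for the 36 genes, 0.07 for the other cycle genes and 0.02 for the regulators, 0 other fatty acid oxidation genes were lower, and IDH2 (0.02), SUCLG2 (0.02) and ACADVL (0.01) became positive.

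The GC content correction gave medians of 0.02 for the 36 genes and 0.01 for the other cycle genes, called 0 other fatty acid oxidation genes in either direction, and turned IDH3B (−0.05), IDH3G (−0.04), SUCLG2 (0.05), SUCLA2 (0.06), MDH2 (−0.01) and ETFB (−0.06). The gene length correction gave medians of −0.04 and −0.02 for these lists, 265 higher genes by the study's criteria, 1 higher gene of the 36, 1 higher and 0 lower other fatty acid oxidation genes, and turned IDH3B (−0.07), IDH3G (−0.07), FH (−0.03), MDH2 (−0.01), ETFA (−0.04) and ETFB (−0.10).

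Replicate numbers are shared by the labels. Deviations of same-numbered samples correlated at −0.070 over 14473 genes and at −0.229 over the 7236 with the higher mean. With 2 samples per group, these values cannot tell whether same-numbered samples shared more than a number. The replicate block gave 1 gene of all tested at an adjusted p below 0.05 and 1 lower other fatty acid oxidation gene. The GC content correction with replicate block gave 23 genes of all tested at an adjusted p below 0.05, 4 higher genes of the 36, 1 higher other cycle gene, 0 other fatty acid oxidation genes in either direction, medians of 0.02 and 0.01 for the 36 genes and the other cycle genes, and turned IDH3B (−0.05), IDH3G (−0.05), SUCLG2 (0.05), SUCLA2 (0.05), MDH2 (−0.01) and ETFB (−0.06). The gene length correction with replicate block gave 16 genes at an adjusted p below 0.05, 0 higher genes of the 36, 1 higher and 1 lower other fatty acid oxidation gene, 0 lower regulators, medians of −0.04 and −0.03 for the 36 genes and the other cycle genes, and turned IDH3B (−0.07), IDH3G (−0.07), FH (−0.03), MDH2 (−0.01), ETFA (−0.04) and ETFB (−0.11). The crossed block, chosen after seeing the data, gave 1207 lower genes of all tested, 381 at an adjusted p below 0.05, 5 higher genes of the 36, 1 lower other fatty acid oxidation gene and 2 lower regulators.

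Leaving out each sample in turn moved counts most, since the lone sample of a group is then assumed to vary like the other group, and the highest counts came without LY500307 replicate 1. Over all genes tested, 424 to 2945 were higher and 283 to 3067 lower at an unadjusted p below 0.05, 148 to 1067 and 204 to 920 by the study's criteria, and 0 to 5002 at an adjusted p below 0.05. Of the 36 genes, 0 to 12 were higher and 0 to 5 lower, 0 to 2 and 0 to 1 by the study's criteria, and 0 to 13 at an adjusted p below 0.05, with medians of 0.01 to 0.04. Other cycle genes gave 0 to 7 higher, 0 to 4 lower and medians of −0.01 to 0.04, other fatty acid oxidation genes gave 0 to 9 higher, 0 to 3 lower and medians of −0.03 to 0.17, and regulators gave 0 to 4 higher, 0 to 5 lower and medians of −0.06 to −0.01. The log2 fold change spanned 0 for CS (−0.03 to 0.09), IDH2 (−0.05 to 0.02), IDH3A (−0.24 to 0.01), IDH3B (−0.09 to 0.13), IDH3G (−0.01 to 0.10), OGDH (−0.12 to 0.02), DLST (−0.06 to 0.21), SUCLG1 (−0.12 to 0.01), SUCLA2 (−0.15 to 0.02), FH (−0.06 to 0.16), MDH1 (−0.02 to 0.74), PC (−0.07 to 0.41), ACADS (−0.23 to 0.94), ACAD9 (−0.16 to 0.03), HADH (−0.07 to 0.26), ETFA (−0.04 to 0.08) and ETFDH (−0.33 to 0.08). Depth limits CPT1B, with 19 to 51 reads per sample.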
